A study of Mus musculus with 4 samples.

Results

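The interferon-gamma induced GTPases examined here were 10 mouse genes, of which 5 encode guanylate-binding proteins (Gbp2, Gbp3, Gbp5, Gbp6 and Gbp7) and 5 encode immunity-related GTPases (Igtp, Irgm1, Irgm2, Iigp1 and Ifi47). They were chosen from results of the same contrast that is described below, in which Gbp2, Gbp3 and Igtp were already known to be lower in the knockout-labelled samples. Their ratios are therefore a description, without a test of their own. Spots outside the controls were taken when their RefSeq accession belonged to a listed gene, and every probe was kept apart. All 10 genes were found, with 13 of the 39429 probes of the array, among 20832 genes with a symbol. The genes Gbp6, Irgm1 and Iigp1 had 2 probes each and the other 7 genes had 1.

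The samples were total RNA from the cortex on the injured side of the brain of C57BL/6 mice aged 8 weeks, at 24 h after permanent MCAO, a stroke model in which the middle cerebral artery of the left side was electrocoagulated and cut. One group was wildtype and the other Ndrg2KO, in which Ndrg2, a gene abundant in astrocytes, is knocked out. Both groups had the occlusion, and uninjured cortex was not analysed here. Each of 4 two-colour arrays on 1 slide held a wild-type sample in Cy5 and a knockout sample of the same replicate number in Cy3. A ratio is given below as log2 of knockout-labelled over wild type, so a negative value means a lower signal in the knockout-labelled sample. No array had the dyes exchanged, so a dye effect of a single probe and a difference between genotypes cannot be told apart. The labels did not say that the samples came from separate animals, or what the deletion removes, so p-values cover no more than the spread between the samples at hand, which may be technical.

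The single Ndrg2 probe had ratios of -0.22, -0.22, -0.18 and -0.11 on arrays 1 to 4 and was lower in the knockout-labelled samples (mean -0.18 ± 0.05, SD, n = 4; limma, adjusted p = 0.0244). The signal thus remained in the knockout-labelled channel, and the probe's position relative to the deletion is not given, so this value is no check of the genotype. The term knockout-labelled is used for that reason. Of the 43020 spots per array outside the controls, 76.7 to 79.0% were well above background in Cy5 and 73.6 to 74.9% in Cy3, and 0 were saturated. Of 30270 probes tested, 2811 were higher and 3528 lower, and 6310 of these 6339 had 1 sign on all 4 arrays. Over all probes, ratios correlated across arrays at 0.73 for arrays 1 and 2, at 0.63 for arrays 3 and 4 and at 0.41 to 0.47 for the other pairs, so arrays 1 and 2, and arrays 3 and 4, were more alike, for which the labels give no reason.

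Interferon-gamma, made mainly by T and natural killer cells, binds the receptor chains Ifngr1 and Ifngr2, which signal through the kinases Jak1 and Jak2. Many induced genes hold gamma-activated sites (GAS) and interferon-stimulated response elements (ISRE) in their promoters, and interferon regulatory factors such as Irf1 bind the latter. The guanylate-binding proteins are large GTPases that assemble on the membranes around intracellular pathogens and take part in inflammasome activation. The immunity-related GTPases are divided into regulators (Irgm1, Irgm2 and Igtp, also called Irgm3), which guard the membranes of the cell itself, and effectors such as Iigp1 (Irga6) and Ifi47 (Irgd), which attack the vacuoles of pathogens in mouse cells. In brain, microglia, infiltrating leukocytes, endothelial cells and astrocytes can express them when exposed to interferons.

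The promoters are shown first, because they hold the elements by which these genes are known to be induced. Their sequence was not used to choose the genes, but the genes were grouped as induced by interferon-gamma. A high share of these elements thus follows from the class chosen and is no test. Promoter windows from RefSeq (GRCm38.p6), reaching from 250 bases before to 50 bases after the transcription start, were matched for 8 of the 10 genes, and Gbp3 had 2 windows, for 2 starts. The motifs searched, on both strands, were TTCNNNGAA for GAS and GAAA followed after any 2 bases by another GAAA for ISRE. The 120 bases before the start are printed 5′ to 3′ on the strand of the gene for the 7 genes in which a motif was found, with the matches in capitals. Positions are counted back from -1, the base before the start.
Gbp2, chr3:142620543-142620662, plus strand: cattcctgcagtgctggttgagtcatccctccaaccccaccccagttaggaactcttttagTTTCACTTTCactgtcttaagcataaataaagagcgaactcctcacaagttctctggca
Gbp3, chr3:142559924-142560043, plus strand: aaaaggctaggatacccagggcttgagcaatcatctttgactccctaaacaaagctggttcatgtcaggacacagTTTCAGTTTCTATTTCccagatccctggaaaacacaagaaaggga
Gbp5, chr3:142496814-142496933, plus strand: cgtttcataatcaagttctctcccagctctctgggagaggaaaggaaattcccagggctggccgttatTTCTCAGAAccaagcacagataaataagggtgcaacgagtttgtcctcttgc
Gbp7, chr3:142530216-142530335, plus strand: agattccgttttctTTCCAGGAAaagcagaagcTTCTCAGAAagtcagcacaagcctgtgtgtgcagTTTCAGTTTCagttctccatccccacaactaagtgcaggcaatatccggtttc
Igtp, chr11:58199436-58199555, plus strand: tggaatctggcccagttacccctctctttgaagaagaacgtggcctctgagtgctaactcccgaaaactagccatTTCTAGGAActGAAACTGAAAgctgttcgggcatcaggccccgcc
Irgm1, chr11:48871421-48871540, minus strand: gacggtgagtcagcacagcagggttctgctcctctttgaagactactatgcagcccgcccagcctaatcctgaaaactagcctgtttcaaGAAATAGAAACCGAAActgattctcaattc
Irgm2, chr11:58214857-58214976, plus strand: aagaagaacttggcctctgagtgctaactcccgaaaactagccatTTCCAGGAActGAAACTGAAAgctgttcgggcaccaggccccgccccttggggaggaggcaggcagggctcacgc

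An ISRE match was found in 7 of the 8 genes, which had 9 windows, whereas 3.44% of all 32851 windows in the table held one. The GAS letters were found in Gbp5, Gbp7, Igtp and Irgm2, that is in 4 of the 8 genes, against 8.30% of all windows. Those 4 genes held both motifs, as did 0.454% of all windows. In the guanylate-binding protein genes the ISRE letters lay on the other strand, so that they read TTTC, any 2 bases and TTTC above, and in the immunity-related GTPase genes they lay on the strand of the gene.

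The nearest matches lay close to the start. In Igtp the GAS match covered -45 to -37 and the ISRE match -34 to -25, and in Irgm2 the same pair, with the same spacing, lay at -75 to -67 and -64 to -55. These windows are alike over a longer stretch: with Irgm2 shifted by 30 bases, 184 of 270 positions were identical (68.1%), while the next most alike windows of different genes, those of Gbp2 and Gbp3, shared 102 of 292 (34.9%). Gbp7 held 2 GAS matches, at -106 to -98 and -87 to -79, followed by an ISRE match at -53 to -44. In Gbp5 a GAS match lay at -52 to -44, and a second one (-245 to -237) and the ISRE match (-165 to -156) lay before the printed stretch. Gbp2 held an ISRE match at -59 to -50, while the upstream start of Gbp3 (-45 to -36 and -39 to -30) and Irgm1 (-30 to -21 and -24 to -15) each held a pair of ISRE matches that overlapped. The window of Ifi47 and the second window of Gbp3 held neither set of letters. A match is a run of letters and not a shown binding site.

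**Figure D1:**
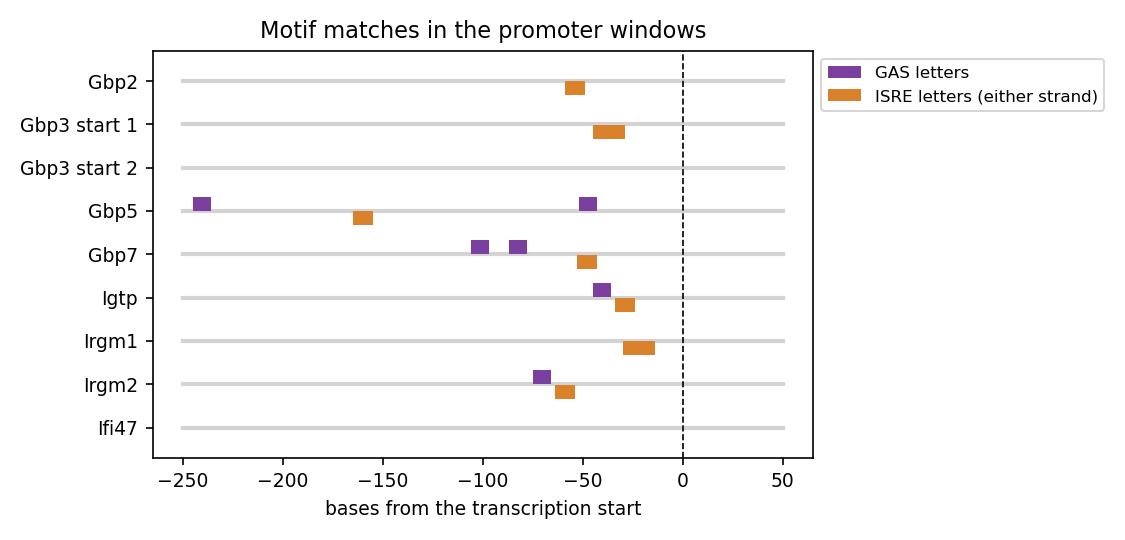
Positions of the GAS letters (purple) and the ISRE letters on either strand (orange) in the promoter windows of 8 GTPase genes, in bases from the transcription start, with the start as a dashed line. The ISRE letters stood in the windows of 7 genes, and Ifi47 and the second start of Gbp3 held neither motif.

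The lowest means belonged to Gbp2 and Gbp3, of the guanylate-binding protein cluster on chromosome 3. Gbp2, which coats the vacuoles of Toxoplasma in mouse cells, had ratios of -0.74, -1.87, -0.45 and -0.35 on arrays 1 to 4. All 4 were below 0, and array 2 stood far below the rest, so the mean of -0.85 (SD 0.70, n = 4), a 1.8-fold lower signal, covered a range from 3.65-fold on array 2 to much smaller differences on arrays 3 and 4. Its wild-type log2 signals were 10.95, 12.07, 11.51 and 10.94 and its knockout-labelled ones 10.21, 10.20, 11.05 and 10.59. The groups overlapped, since the knockout-labelled sample of array 3 exceeded the wild-type samples of arrays 1 and 4, although it lay below its own partner.

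Gbp3, its neighbour in the cluster, had ratios of -0.68, -1.22, -0.48 and -0.45 (mean -0.71 ± 0.36, SD, n = 4), or 1.64-fold. Array 2 was again the lowest and arrays 3 and 4 nearly coincided. Its wild-type log2 signals were 10.55, 11.32, 11.10 and 10.68, and its knockout-labelled ones were 9.86, 10.09, 10.61 and 10.23. Here too only the knockout-labelled sample of array 3 reached into the wild-type range.

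Gbp5, a promoter of NLRP3 inflammasome assembly in mouse macrophages, had ratios of -0.30, -1.21, -0.35 and -0.04, with a mean of -0.48 ± 0.51 (SD, n = 4). Arrays 1 to 3 were below 0 and array 4 was near it. Gbp7, which helps to bring the NADPH oxidase to phagosomes in mouse macrophages, had ratios of -0.36, -0.59, -0.04 and 0.14, so that arrays 1 and 2 were low and arrays 3 and 4 lay on either side of 0 (mean -0.21 ± 0.32, SD, n = 4).

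Gbp6 lies in a second cluster, on chromosome 5, and its probes gave different values. Probe 1 had ratios of 0.22, -0.13, -0.09 and 0.11 and alone of the 13 probes had a mean above 0 (0.03 ± 0.17, SD, n = 4). Probe 2 had ratios of -0.22, -0.65, -0.16 and 0.07 (mean -0.24 ± 0.30, SD, n = 4). The probe sequences are not given, so it could not be checked which transcripts of Gbp6, or of similar family members such as Gbp10, each probe reports.

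Among the regulators, Igtp had ratios of -0.43, -1.07, -0.40 and -0.20, all below 0 and lowest on array 2 (mean -0.52 ± 0.38, SD, n = 4), or 1.44-fold. Its wild-type log2 signals were 11.53, 12.28, 11.91 and 11.55 and its knockout-labelled ones 11.10, 11.21, 11.52 and 11.35, so the groups did not overlap, by the narrowest of margins. The probe of Igtp, alone among the 13, was printed repeatedly, with 10 spots per array, of which 9 were usable on array 1. Within an array the spots had SDs of 0.06, 0.04, 0.04 and 0.04, far less than the SD of 0.38 between arrays. The spread between arrays 1 to 4 was thus several times the spread between spots of the same hybridisation.

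Irgm2, the neighbour of Igtp with the similar promoter, had ratios of -0.59, -1.02, -0.34 and -0.29 (mean -0.56 ± 0.33, SD, n = 4), or 1.47-fold. Its wild-type log2 signals were 10.01, 10.43, 10.19 and 9.89 and its knockout-labelled ones 9.42, 9.41, 9.85 and 9.60, and the groups did not overlap. Irgm1, which is needed in mice for resistance to mycobacteria, had 2 probes with the same ranking of the arrays but different means. Probe 1 had ratios of -0.29, -0.84, 0.06 and 0.13 (mean -0.23 ± 0.44, SD, n = 4), and probe 2 had -0.56, -0.93, -0.25 and 0.05 (mean -0.42 ± 0.42, SD, n = 4). For both, arrays 1 and 2 were below 0 and array 4 above it.

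Of the effectors, Iigp1 had ratios of -0.07, -0.66, -0.29 and -0.16 with probe 1 (mean -0.29 ± 0.26, SD, n = 4) and -0.40, -1.04, 0.04 and 0.03 with probe 2 (mean -0.34 ± 0.51, SD, n = 4). Both probes were lowest on array 2 but ranked arrays 1, 3 and 4 differently. Probe 2 was the dimmest of the 13, with a knockout-labelled signal of 1.74 to 2.46 times the local background. Ifi47 had ratios of -0.40, -1.53, -0.29 and -0.03 (mean -0.56 ± 0.66, SD, n = 4), the second largest drop on array 2 and almost none on array 4. Its wild-type log2 signals were 9.10, 9.96, 9.37 and 9.11 against knockout-labelled ones of 8.71, 8.44, 9.08 and 9.08, and the groups did not overlap.

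**Figure D2:**
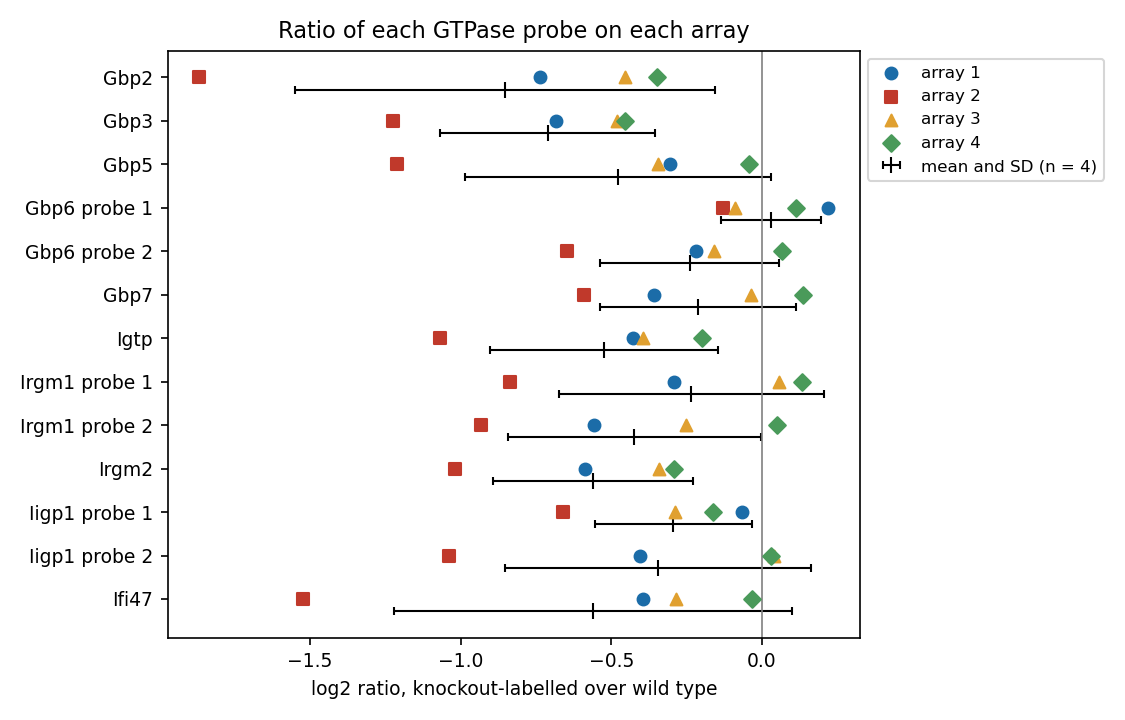
Ratio on the log2 scale, knockout-labelled over wild type (x axis), for each of the 13 GTPase probes (y axis), with a point per array and, below the points, the mean with the SD over 4 arrays. Array 2 was the lowest for every probe, and means ran from -0.85 for Gbp2 to 0.03 for probe 1 of Gbp6.

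In all, 12 of the 13 probes had a mean below 0, with SDs of 0.17 to 0.70. By brightest probe, 9 of the 10 genes had a mean below 0, as did 9393 of all 17024 genes. On all 4 arrays 7 probes were below 0, as were 23.5% of all probes. In 4 probes (Igtp, Irgm2, probe 1 of Iigp1 and Ifi47) every knockout-labelled level lay below every wild-type level, as in 9.84% of all probes. The fit over all probes called 4 of the 13 lower, those of Gbp2, Gbp3, Igtp and Irgm2, and called 0 higher. A call means a limma adjusted p under 0.05, and 11.7% of all probes were called lower and 9.29% higher. At an unadjusted p under 0.05 in limma, 7 of the 10 genes by brightest probe were lower (70%) and 0 higher. Over all genes these shares were 22.3% and 15.8%. Since the contrast that chose the genes gave these counts, nothing is read from them. In bulk tissue, fewer cells that express a gene and less RNA per cell cannot be told apart.

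Which probes passed depended on single arrays. Without array 1 only Gbp3 was called, without array 3 only Gbp3 and Irgm2, without array 2 the same 4 as with all arrays, and without array 4 those 4 and probe 2 of Irgm1. When the channels were treated as 8 separate samples, with no pairing by array, 2 probes were called (Gbp3 and Irgm2), and with the log ratios of the scanner software 1 was (Gbp3). Without array 2 the mean of Gbp2 was -0.51 and that of Igtp -0.34, and the median over the 10 genes, each by its brightest probe, was -0.24 in place of -0.50. The median over all 17024 genes was -0.02.

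**Figure D3:**
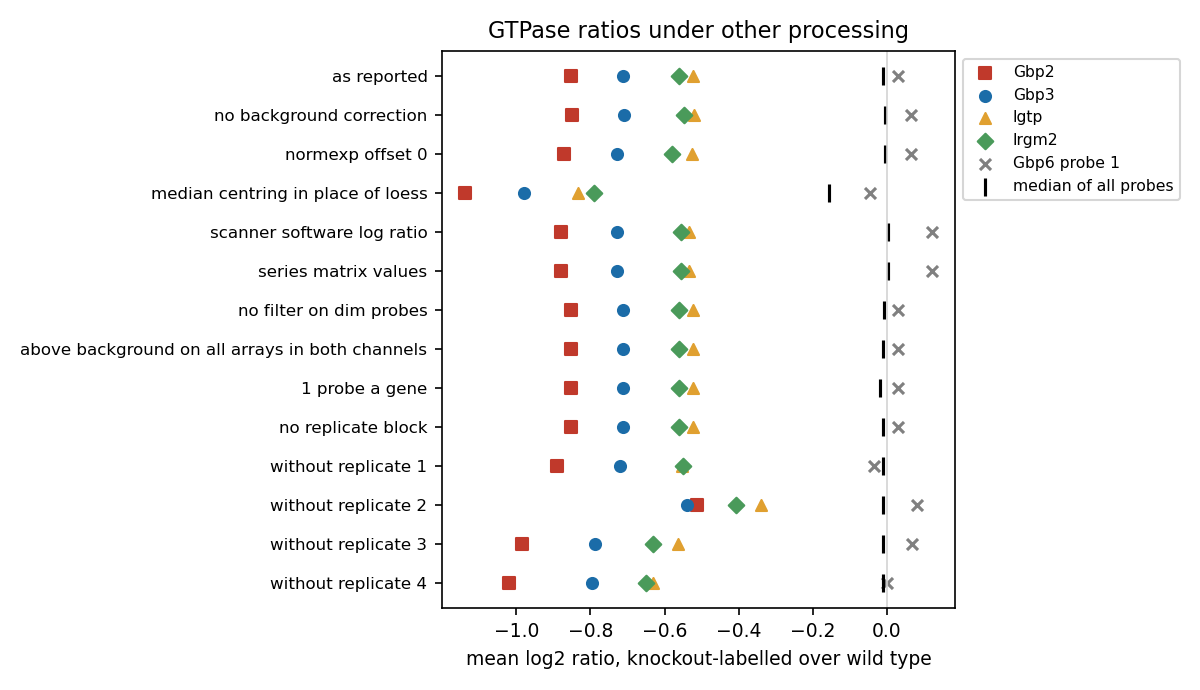
Mean log2 ratio (x axis) of 5 GTPase probes under each way of processing and without each array in turn (y axis), with the median of all probes as a black tick. Gbp2, Gbp3, Igtp and Irgm2 stayed below 0 throughout, probe 1 of Gbp6 moved between -0.05 and 0.12, and the median of all probes lay apart from 0 only with median centring, at -0.16.

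The arrays ranked the genes in a shared order. All 13 probes had their lowest ratio on array 2, against 25.5% of all probes. On array 1, 10 had their second lowest, for which no share over all probes was taken. The order 2, 1, 3, 4 from lowest to highest held for 9 of the 13 probes and for 6.31% of all probes. The median over the 10 genes was -0.38, -1.04, -0.32 and -0.10 on arrays 1 to 4, while the median over all genes lay between -0.02 and -0.01 on each. The low point on array 2 was not particular to these genes. The medians of type I interferon-stimulated genes (-0.86) and of other interferon-gamma targets (-0.53), described below, were also lowest there.

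The channels showed where array 2 departed. Its wild-type log2 signal exceeded the mean of the other wild-type samples for all 13 probes, by 0.02 to 0.94 with a median of 0.50, and it was the highest wild-type signal for 11 probes, against 23.2% of all probes. Its knockout-labelled signal was below or equal to the mean of the other knockout-labelled samples for all 13, by 0.00 to 0.52 with a median difference of -0.23. By these medians the wild-type sample of array 2 stood further from its group than the knockout-labelled one did. In 11 probes the wild-type samples covered a wider range than the knockout-labelled ones, and the knockout-labelled sample of array 1 or 2 was the lowest of its group in 12. For the ranges and for the lowest knockout-labelled sample no share over all probes was taken, so nothing is read from those counts.

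**Figure D4:**
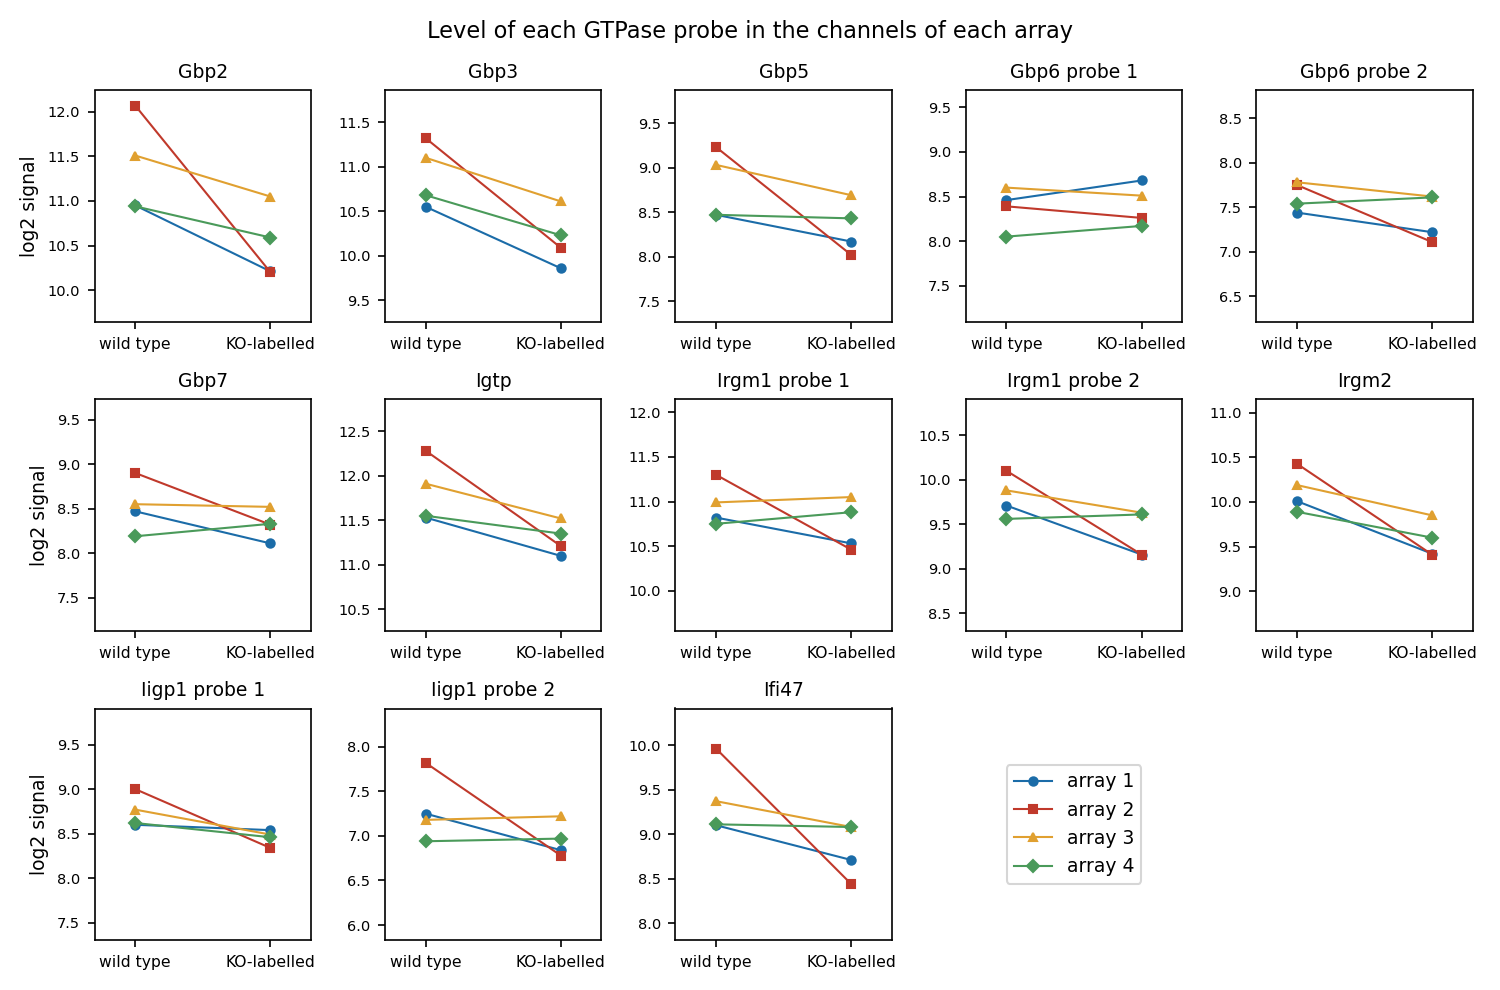
Log2 signal of each GTPase probe in the wild-type and the knockout-labelled channel (x axis), with a line per array joining the samples that shared it; all panels span the same height in log2 units and are centred on their own values. The wild-type sample of array 2 (red squares) was the highest of its group in 11 of 13 panels, and its line was the steepest downward in all 13.

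Other members of both families were taken from a list of 19 genes, of which 16 were on the array and 11 were well above background. None was called (limma adjusted p under 0.05), where 12.7% of all genes by their brightest probe were called lower and 8.88% higher; at an unadjusted p under 0.05, 4 of the 11 (36.4%) were lower and 0 higher, against 22.3% lower and 15.8% higher over all genes. These shares of all genes are the background for every list below, and none of the lists was tested against it. The genes named here were chosen after their values were seen. The median of the 11 was -0.09, and without array 4 the fit called 2 of them, Tgtp2 and Gvin1. Tgtp2, an effector of the immunity-related GTPases, had ratios of -0.53, -1.18, -0.19 and -0.17 (mean -0.52 ± 0.48, SD, n = 4; limma, adjusted p = 0.0538). The probe of its near-identical copy Tgtp1 stood at -0.03 ± 0.15 (adjusted p = 0.789), and a second Tgtp2 probe was not well above background, so values of this pair are uncertain.

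Gm4951, a relative of Iigp1, had ratios of -0.33, -1.10, -0.28 and -0.10 (limma, adjusted p = 0.0655), and Gvin1, a very large interferon-inducible GTPase, had -0.65, -1.14, -0.22 and 0.05 (adjusted p = 0.0803), both lowest on array 2. The chromosome 5 guanylate-binding protein genes other than Gbp6 were closer to 0: Gbp4 at -0.25 ± 0.28 (adjusted p = 0.106), Gbp10 at -0.10 ± 0.07 (adjusted p = 0.149) and Gbp9 at -0.04 ± 0.10 (adjusted p = 0.590). The genes 9930111J21Rik2, Gbp2b, Gbp8, Gm12185 and Irgc1 were not well above background.

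The ligand itself was not measurable. The probe of Ifng, which encodes interferon-gamma, was not well above background on any array in either channel. Of 10 genes listed for the ligand and its inducers, 9 were on the array and 6 were tested, with a median of 0.04. None was called by limma, and none had an unadjusted p under 0.05. Il27, a subunit of a cytokine that induces interferon-gamma, stood at 0.09 (adjusted p = 0.149), and the receptor chains of interleukin-12 stood at 0.11 for the brighter probe of Il12rb1 (adjusted p = 0.165; -0.08 with its other probe) and -0.11 for Il12rb2 (adjusted p = 0.197).

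In the receptor and its signalling chain calls were about as frequent as over all genes. Of the 13 genes listed, limma called 2 lower (15.4%, against 12.7% of all genes) and 0 higher, with a median of -0.08; at an unadjusted p under 0.05, 4 were lower (30.8%, against 22.3%) and 0 higher. The receptor chains were at 0.01 ± 0.04 for Ifngr1 (adjusted p = 0.826) and -0.06 ± 0.09 for Ifngr2 (adjusted p = 0.383), and the kinase Jak1 was at -0.08 ± 0.09 (adjusted p = 0.295). The kinase Jak2 was lower, with ratios of -0.28, -0.09, -0.24 and -0.14 (mean -0.19 ± 0.09; adjusted p = 0.0324), and was closest to 0 on array 2. Stat2, which with Irf9 takes part in a complex that binds ISRE sequences, was lower at -0.31 ± 0.22 (adjusted p = 0.0349).

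The interferon regulatory factors Irf1, Irf8 and Irf9 were not called by limma. Irf1 had ratios of -0.33, -0.69, -0.08 and -0.13 (mean -0.31 ± 0.28; adjusted p = 0.0597), Irf9 had -0.51, -0.73, -0.11 and -0.08 (adjusted p = 0.0525), and Irf8, a factor of myeloid cells, stood at -0.18 ± 0.37 (adjusted p = 0.334). Irf1 and Irf9 were lowest on array 2, as the GTPases were. Irf9 lies on chromosome 14, as Ndrg2 does. Without array 1, 2 or 3 the count of called signalling genes fell from 2 to 0. Of 9 inhibitors of the pathway none was called by limma, 3 were lower and 1 higher at an unadjusted p under 0.05, and their median was -0.15. The 3 with the smallest p were Pias1 at -0.15 (adjusted p = 0.0565), Ptpn6 at -0.29 (adjusted p = 0.0595) and Ptpn2 at -0.16 (adjusted p = 0.0719). Further probes of Pias1 stood at -0.13 and 0.08 and of Ptpn2 at 0.12 and -0.23, so their probes differed in sign, and none was called.

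Of genes that interferon-gamma induces outside the GTPase families, 30 were listed, 29 were on the array and 26 were tested. At an unadjusted p under 0.05 in limma, 14 were lower (53.8%, against 22.3% of all genes) and 1 higher (15.8% of all genes). After adjustment limma called 7 lower (26.9%, against 12.7% of all genes) and 0 higher (8.88% of all genes), and the median was -0.22. Those lower with the smallest p were Cd274, which encodes the checkpoint ligand PD-L1, at -0.31 ± 0.16 (adjusted p = 0.0167), the secreted glycoprotein gene Lgals3bp at -0.45 ± 0.27 (adjusted p = 0.0179), and Gch1, the first enzyme of tetrahydrobiopterin synthesis, at -0.66 ± 0.42 (adjusted p = 0.0179). A second Lgals3bp probe was also lower, at -0.30 (adjusted p = 0.0387), but a second Gch1 probe stood at 0.13 (adjusted p = 0.256), and Gch1 lies on chromosome 14 as Ndrg2 does. The other 4 were the class II antigen gene H2-Ab1 at -0.64 (adjusted p = 0.0391), the immunoproteasome gene Psmb8 at -0.35 (adjusted p = 0.0373), the transcription factor gene Batf2 at -0.31 (adjusted p = 0.0444) and B2m, the light chain of class I antigens, at -0.22 (adjusted p = 0.0460). A second H2-Ab1 probe was also called lower (-0.67), but on array 4 the brighter probe stood at 0.004. The class II genes H2-Aa (-0.18), H2-Eb1 (-0.44) and Cd74 (-0.53) were not called.

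On arrays 1 to 4 the median of these 26 genes was -0.30, -0.53, -0.06 and 0.00, against -0.38, -1.04, -0.32 and -0.10 for the GTPases. The count called was 1 without array 1, 2 without array 2, 3 without array 3 and 9 without array 4. Cxcl10, a chemokine that attracts T cells and a textbook target of interferons, was chosen after its values were seen: its ratios of -0.95, -3.27, -0.80 and -0.35 were all below 0, with an SD of 1.31 between arrays, and it was not called (limma, adjusted p = 0.0589). The probes of Ciita, Cxcl9 and Ido1 were not well above background.

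Genes known chiefly as targets of type I interferons were listed for comparison. Of 28, 26 were on the array and tested. Limma called 1 lower (3.85%) and 0 higher, where 12.7% of all genes were lower and 8.88% higher, and at an unadjusted p under 0.05, 5 were lower (19.2%, against 22.3% of all genes) and 0 higher. The gene called was Oasl2, of the oligoadenylate synthetase family, with ratios of -0.68, -1.87, -0.32 and -0.33 (mean -0.80 ± 0.73; adjusted p = 0.0497). Eif2ak2, the kinase PKR, stood at -0.23 (adjusted p = 0.0514) and Ddx58, the sensor RIG-I, at -0.30 (adjusted p = 0.0595), though a second, dimmer Ddx58 probe stood at -0.01 (adjusted p = 0.960). The median of the 26 was -0.12, -0.86, 0.01 and 0.07 on arrays 1 to 4, so it was low on array 2 and near 0 on arrays 3 and 4. The count called was 0 without array 1 or 3, and 2 without array 4. Since all these genes share the same 8 samples with the GTPases, the lists are set side by side and no likeness between them was tested.

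Partners of the GTPases in autophagy and inflammasomes were called in both directions, at shares near those of all genes. Of 23 tested, limma called 4 lower (17.4%, against 12.7%) and 3 higher (13%, against 8.88%), with a median of -0.01. Gabarapl1 was lower at -0.34 ± 0.14 (adjusted p = 0.0105), whereas its relatives Gabarap at 0.21 ± 0.05 (adjusted p = 0.0156) and Gabarapl2 at 0.21 ± 0.08 (adjusted p = 0.0228) were higher, the former also with a second probe (0.19, adjusted p = 0.0314); these ubiquitin-like proteins mark the membranes on which the immunity-related GTPases sort self from non-self. With median centring in place of loess Gabarap and Gabarapl2 turned to -0.30 each. The autophagy initiator Becn1 was higher at 0.20 (adjusted p = 0.0228), and Map1lc3b at -0.20 (adjusted p = 0.0386), the inflammatory caspase Casp1 at -0.17 (adjusted p = 0.0352) and the pore-forming Gsdmd at -0.21 (adjusted p = 0.0497) were lower. The 7 calls fell to 2 without array 1, 3 or 4 and to 3 without array 2. Large GTPases of the dynamin superfamily, to which the guanylate-binding proteins are related in structure, gave 1 lower gene of 10 tested (10%, against 12.7%) by their brightest probes, and a median of -0.06. The gene was the neuronal Dnm1, at -0.23 ± 0.05 (limma, adjusted p = 0.0125), but its second probe was called higher, at 0.33 ± 0.19 (adjusted p = 0.0220), so its probes disagree and no direction is given for it.

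Markers of the cells that could carry the GTPases were set beside them, to be read against the 12.7% of all genes called lower and the 8.88% called higher. Of 10 microglial markers limma called 5 lower (50%) and 0 higher, their median was -0.12, -0.11, -0.09 and -0.21 on arrays 1 to 4, and their summed linear signal was 115000 to 128000 in the wild-type samples and 101000 to 112000 in the knockout-labelled ones. Those called were Cx3cr1, Olfml3, Aif1, P2ry13 and Siglech by their brightest probes. Second probes of Cx3cr1 (-0.09) and Siglech (0.09) were not called, while that of Olfml3 was lower (-0.42). P2ry12 (0.12) and Gpr34 (0.21) lay above 0 and were not called. The brightest microglial probe was that of Siglech, with a mean wild-type log2 signal of 15.76, against 14.73 for Csf1r, the next brightest. Of 9 monocyte and macrophage markers 3 were lower (33.3%) and 0 higher (Ms4a4c at -0.49, Adgre1 at -0.40 and Itgam at -0.24 by their brightest probes), their median was -0.39, -0.49, -0.18 and 0.07 on arrays 1 to 4, and their sums were 100000 to 120000 and 85400 to 99700. Dimmer probes of these 3 were not called for Adgre1 (-0.09) and Ms4a4c (-0.33 and -0.19), while of the other Itgam probes 1 was lower (-0.18) and 1 was not called (-0.03). The monocyte sums come mostly from the brightest probes of Itgam, Ms4a4c and F10 (mean wild-type log2 signals of 15.06, 14.85 and 14.59). Other probes of Ms4a4c (7.12 and 6.97) and Itgam (8.72 and 7.42) were far dimmer. Which transcripts the bright probes report could not be checked. Of 8 neutrophil markers 2 were lower (25%) and 0 higher, with medians of -0.19, -0.29, -0.15 and 0.04 and sums of 57400 to 66300 and 45300 to 54100. Those called were Elane at -0.22 and Csf3r at -0.25, while S100a8 at -0.68 (adjusted p = 0.0576) and S100a9 at -0.54 (adjusted p = 0.107) were not. The sums come mostly from the Csf3r probe, whose mean wild-type log2 signal was 15.68, against 12.18 for S100a9, the next brightest. The medians of the monocyte and the neutrophil markers thus ranked the arrays 2, 1, 3, 4, as most of the GTPase probes did, whereas the microglial median was lowest on array 4. The medians of the oligodendrocyte and dendritic cell markers, given below, had that order as well. The part of any of these cell types in the ratios of the GTPases was not tested.

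Few markers of T and natural killer cells, the usual source of interferon-gamma, could be measured: Cd3g, Cd8a, Gzmb, Klrb1c, Klrk1 and Ncr1 were not well above background. Of 9 markers tested Nkg7 alone was called (11.1% lower), at -0.23 ± 0.05 (limma, adjusted p = 0.0128), the median was -0.05, -0.05, -0.07 and 0.02 on arrays 1 to 4, and the sums were 5290 to 6190 in wild type and 4860 to 6050 in the knockout-labelled samples. Among 10 markers each, astrocytes had 4 lower (40%) and 0 higher with a median of -0.15, endothelial cells 1 lower (10%) and 0 higher with -0.14, neurons 2 lower (20%) and 0 higher with -0.02, and oligodendrocytes 0 lower and 2 higher (20%) with 0.07. The endothelial call was Ly6c1 (-0.385), whose second probe stood at -0.01 and was not called. The oligodendrocyte calls were Olig2 (0.16) and Mbp (0.29), and the other Mbp probes stood at -0.115 and 0.11 and were not called. Ndrg2, the gene knocked out, was 1 of the 4 astrocyte markers called lower. These endothelial and neuronal shares of calls lie near those of all genes. At an unadjusted p under 0.05 in limma, 5 endothelial markers were lower (50%, against 22.3% of all genes) and 1 higher. For neurons 3 were lower (30%) and 1 higher. The endothelial median was -0.23, -0.20, -0.04 and 0.01 on arrays 1 to 4. For B cells and dendritic cells 4 markers each could be tested and none was called by limma, with an unadjusted p under 0.05 for 0 and for 1, and medians of 0.01 and -0.02. Ngp of the neutrophils, Pax5 of the B cells, and Clec9a and Xcr1 of the dendritic cells were not well above background. The 5 erythrocyte markers tested had medians of -0.30, -0.63, -0.05 and 0.19 on arrays 1 to 4 and sums of 43900 to 55100 in wild type and 35800 to 58300 in the knockout-labelled samples. They again ranked the arrays 2, 1, 3, 4, though none was called by limma (2 were lower at an unadjusted p under 0.05), and the part of blood left in the tissue was not tested. The oligodendrocyte medians, at -0.09, -0.25, 0.25 and 0.37 on arrays 1 to 4, had this order too. So did the dendritic cell medians, at -0.14, -0.146, -0.001 and 0.07. The order was thus not particular to markers of blood or myeloid cells.

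**Figure D5:**
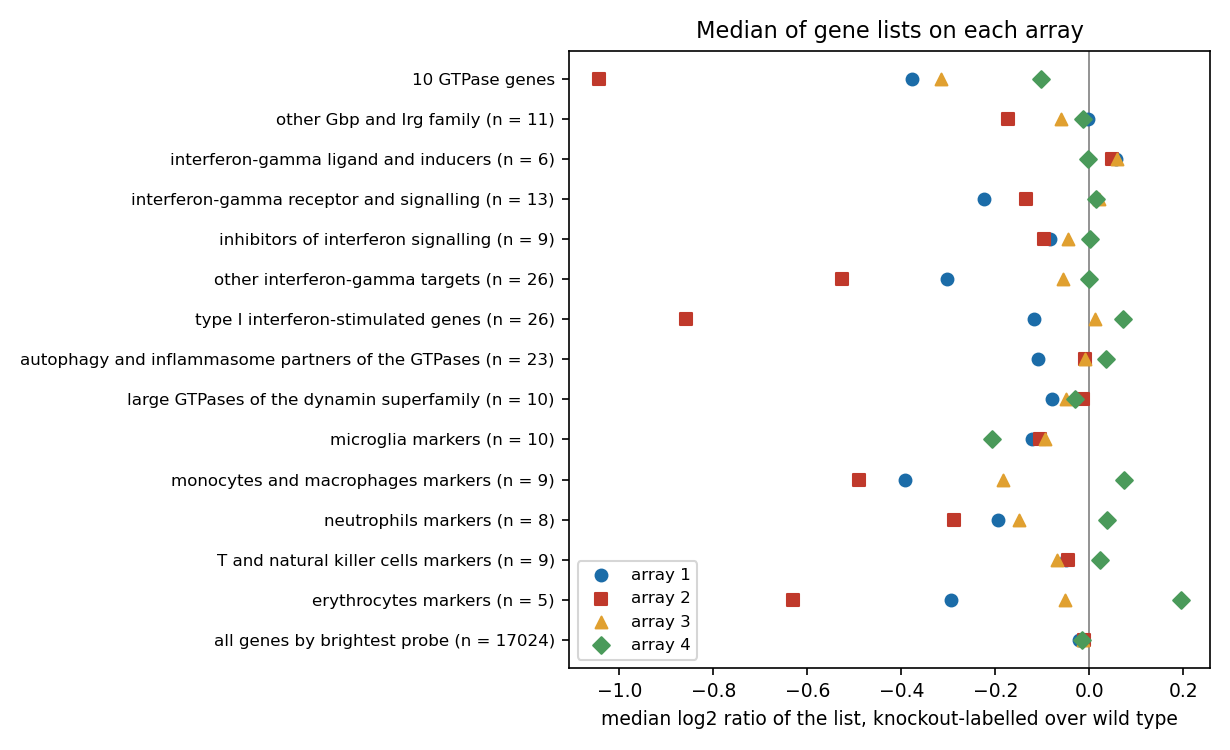
Median log2 ratio (x axis) of each gene list on each of the 4 arrays, with each gene counted by its brightest probe. The 10 GTPase genes reached -1.04 on array 2, type I interferon-stimulated genes -0.86 and erythrocyte markers -0.63, while the median of all 17024 genes stayed near 0 on every array.

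Finally, 16059 named genes outside the 10 were ranked by how closely their 4 ratios followed the median profile of the GTPases, as the root mean square difference on the log2 scale over 4 arrays. This measure describes these 8 samples and says nothing of shared control. The closest was Acod1, the enzyme that makes itaconate in activated macrophages, at a difference of 0.09, with ratios of -0.45, -0.96, -0.41 and -0.20. Acod1 lies on chromosome 14, as Ndrg2 does. It was followed by the haemoglobin gene Hba-a2 (0.10), by Nlrc5 (0.10), the transactivator of class I antigen genes, by Trim30a (0.10), and by the chemokine gene Ccl3 (0.11). Tgtp2 (0.13), Trim30d (0.13), the antiviral Ifitm3 (0.14) and the acute phase gene Saa3 (0.15) were also among the closest. Of these 9 genes, Acod1, Hba-a2 and Ifitm3 were called lower by limma. Nlrc5, Trim30a and Tgtp2 also stand in the lists above, and Hba-a2 is expressed in red blood cells, as the erythrocyte markers are.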

How the data were processed

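Signals of spots and of their local background are linear intensities, and the spot flags are other values of 0 or 1, per the file headers, from Agilent Feature Extraction 11.0.1.1 (the submitters' processing notes name 10.7.3.1). The deposited log10 ratio of Cy5 over Cy3 equalled the ratio of the processed signals within 0.001 for 156132 of 172080 spots; the rest did not match, and the cause was not tested. The deposited series matrix holds log2 values that equalled log2 of processed Cy5 over Cy3 for 39030 of 39030 probes with a single spot (within 0.001; column medians -0.05, -0.06, -0.04 and -0.03), so its direction is wild type over knockout; both served as alternatives. For labelling, 200 ng of RNA was used per the labels, in a text that speaks of plant material.

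Median spot and background signals were corrected with normexp (offset 50; mean signals, planned, were not used here) and normalized by loess within arrays in limma 3.58.1 (R 4.3.3, statmod 1.5.0), and channel levels further by Aquantile. Control spots had weight 0, 139 to 186 outlier spots per array were dropped, and spots of a probe were averaged. Probes well above background on at least 3 of 4 arrays in either channel were kept (30270 of 39429). Names came from a RefSeq table of GRCm38.p6 (27427 probes, 69.6%); the arrays are annotated on another build, so it gave no probe coordinates. Ratios were tested against 0 with lmFit and eBayes, Benjamini-Hochberg adjusted over all kept probes. The array pairs its 2 samples: deviations from the group means correlated at 0.58, 0.21, 0.37 and 0.44 within arrays and at -0.37 to 0.00 across them. The steps were tested on simulated data.

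The genes, the lists and the rule for named genes were chosen with earlier results of these data known. The rule named every probe of the 10 genes, called relatives, up to 3 genes of smallest p per list, pathway genes (among them Ifng, Ifngr1, Ifngr2, Jak1, Jak2, Irf1 and Irf8) and the 10 genes most alike; some genes under this rule are not reported here, and genes called beyond it were named to account for counts. Protein sequences were not analysed here. The alternatives are given below; 4 arrays limit the precision.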

Additional observations from a re-analysis of the deposited data

Results flagged for a closer look

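For the 84 probes named from the genes and lists, the highest or the lowest array was set against the others with Dixon's test at 95%. It stood apart in 3 probes, where chance alone gives about 4.2. Stat2 stood at -0.63 on array 2, while the other arrays averaged -0.20, a gap that took 0.860 of its range. Adgre1, a macrophage marker, went the other way on array 2, at -0.18 against -0.47 (0.867 of the range). Nkg7, a marker of cytotoxic lymphocytes, stood at -0.15 on array 1 against -0.25 on the others (0.906 of the range). None of the 13 GTPase probes was among them.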

How the results depend on the processing

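The means of 12 of the 13 GTPase probes were below 0 under all alternatives run on them, and probe 1 of Gbp6 ranged from -0.05 to 0.12. Median centring in place of loess moved the median of all probes to -0.16 and the share of higher among called probes from 44.3 to 33.6%: it gave 7894 probes higher and 15614 lower, 10 GTPase probes (all lower), 8 other family genes (4 lower, 4 higher), 4 ligand genes (1 lower), 10 signalling genes (all lower), 8 inhibitors (7 lower), 23 interferon-gamma targets (all lower), 12 type I genes (11 lower), 20 partners (18 lower) and 9 dynamin relatives (all lower), and it reversed Gabarap (-0.30), Gabarapl2 (-0.30), Ifngr1 (-0.28), Dnm3 (-0.16), Il27 (-0.022) and Il12rb2 (0.27). The scanner's log ratios and the series matrix gave 2029 and 2026 probes lower, and each gave 1 GTPase probe (Gbp3), 1 ligand gene, 1 signalling gene, 1 target, 0 type I genes, 2 partners (both higher) and 0 dynamin relatives. A normexp offset of 0 gave 2105 probes lower, 2 GTPase probes, 0 signalling genes, 2 targets, 0 type I genes and 4 partners (3 higher). With no replicate block, and thus no pairing by array, 1645 probes were higher and 1748 lower, with 2 GTPase probes, 1 signalling gene, 3 targets, 0 type I genes and 3 partners (2 higher). Type I genes called were 0 with no background correction or 1 probe a gene, and 2 among probes above background in all 8 channels. Leaving out 1 array gave 1095 to 1661 probes higher, 1382 to 2170 lower, 1 to 5 GTPase probes, 0 to 2 other family genes, 0 to 2 signalling genes, 1 to 9 targets, 0 to 2 type I genes and 2 to 3 partners. The cause of these changes was not tested. Gbp3 was called under every alternative. Over all alternatives, 102 counts and medians kept within 1.5 times or 1 SD and 67 did not; of the values of genes named from the lists, 308 kept their direction and side of the threshold, 43 no longer passed, 20 newly passed and 6 reversed. The dimmest probe, the second of Iigp1, had a knockout-labelled signal of only 1.74 to 2.46 times background, and it ranged from -0.75 to -0.07.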
